A study of Arabidopsis thaliana with 4 samples.

Results

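The genes described here encode 8 nuclear components of the photosynthetic electron transport chain of Arabidopsis thaliana: PSBO1 (AT5G66570), PSBO2 (AT3G50820), PSBP-1 (AT1G06680), PSBR (AT1G79040), PETE1 (AT1G76100), PETE2 (AT1G20340, listed as DRT112 in RefSeq), PETC (AT4G03280) and ATPC1 (AT4G04640). They were named by their function from 27444 nuclear protein-coding genes. For each gene, all peaks were taken that overlapped the gene extended by 1000 bp at both ends by at least 1 bp, an interval called the window below. The peaks come from chromatin immunoprecipitation followed by sequencing (ChIP-seq), which maps the DNA that a protein is associated with.

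The protein was FHY1, which carries the far-red photoreceptor phytochrome A into the nucleus, and the study asked whether FHY1 and phytochrome A associate with the same genes. All samples were 4-day-old etiolated seedlings given 3 h of far-red light. Their genotype was 35S:GFP-FHY1 in the fhy1-1 mutant background, so that GFP-tagged FHY1 was made under a viral promoter active in most cells. There were 3 biological replicates of the ChIP, each from a pool of seedlings, and 1 input DNA sample that is not analysed here. The antibody is anti-GFP by the sample labels and anti-FHY1 by the study's design text. There was no second genotype, light treatment or unfused GFP among the samples, so the values below describe 1 condition and no test between conditions was possible.

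In chloroplasts, photosystem II splits water at a manganese cluster that faces the thylakoid lumen. The extrinsic proteins PsbO and PsbP, encoded by PSBO1, PSBO2 and PSBP-1, stabilise that cluster, and PSBR encodes a small subunit that helps PsbP to bind. Electrons then pass through the cytochrome b6f complex, whose Rieske iron-sulphur subunit is encoded by PETC. Plastocyanin, encoded by PETE1 and PETE2, carries them through the lumen to photosystem I. The proton gradient built on the way drives the chloroplast ATP synthase, whose gamma subunit is encoded by ATPC1. Nuclear genes of this chain are transcribed at low levels in darkness and are induced by light through phytochromes and other photoreceptors.

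The replicate lists differed in length, with 8423, 28170 and 19150 peaks in replicates 1, 2 and 3, holding 4541953, 12651543 and 10390173 tags. Library totals are unknown. Fold enrichment, score and false discovery rate are the authors' values for each peak, and the background behind the fold is not stated. The score was taken, from its values, to be a p-value on a negative log scale, and its percentile is the rank of a peak within its own list, so 100 is the strongest peak of that replicate. Bases covered by peaks of all 3 replicates are called all-3 stretches. A stretch takes the fold of the strongest peak over it in each replicate, so a wide peak gives the same fold to several stretches. Gene strand was not used, and gene ends are called low and high by their coordinate.

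Peaks were found at 7 of the 8 genes in every replicate, and ATPC1 had a peak in replicate 3 alone. In replicate 1 the window of 7 genes held a peak, against 40.1% of all protein-coding genes. Replicate 2 also had a peak at 7 genes, where 79% of all genes had one, so that its count lies near the background. In replicate 3 all 8 genes had a peak, against 67.7% of all genes. An all-3 stretch lay in the window of the same 7 genes, against 28.5% of all genes, and bases covered by at least 2 replicates also lay at these 7, against 60.1%. The genes were named with earlier results of these data known and genes that lie together can share a peak, so these counts were not tested. Among the 7 genes, requiring a false discovery rate of at most 1% left an all-3 stretch at 4, without PSBO2, PSBR and PETC, where 16.5% of all genes had one. This cut took out high-score peaks, at PSBR in replicate 3 (percentile 97.9, rate 1.45%) and at PSBO2 in replicate 2 (97.4, 1.58%). It also took out the replicate 2 peaks over the low-end stretches of PSBO1 (1.58%) and PETE1 (1.49%), which were kept by other stretches. With the strongest 8423 peaks of each list it also remained at 4, without PSBP-1, PSBR and PETC, against 14.6% of all genes.

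**Figure D1:**
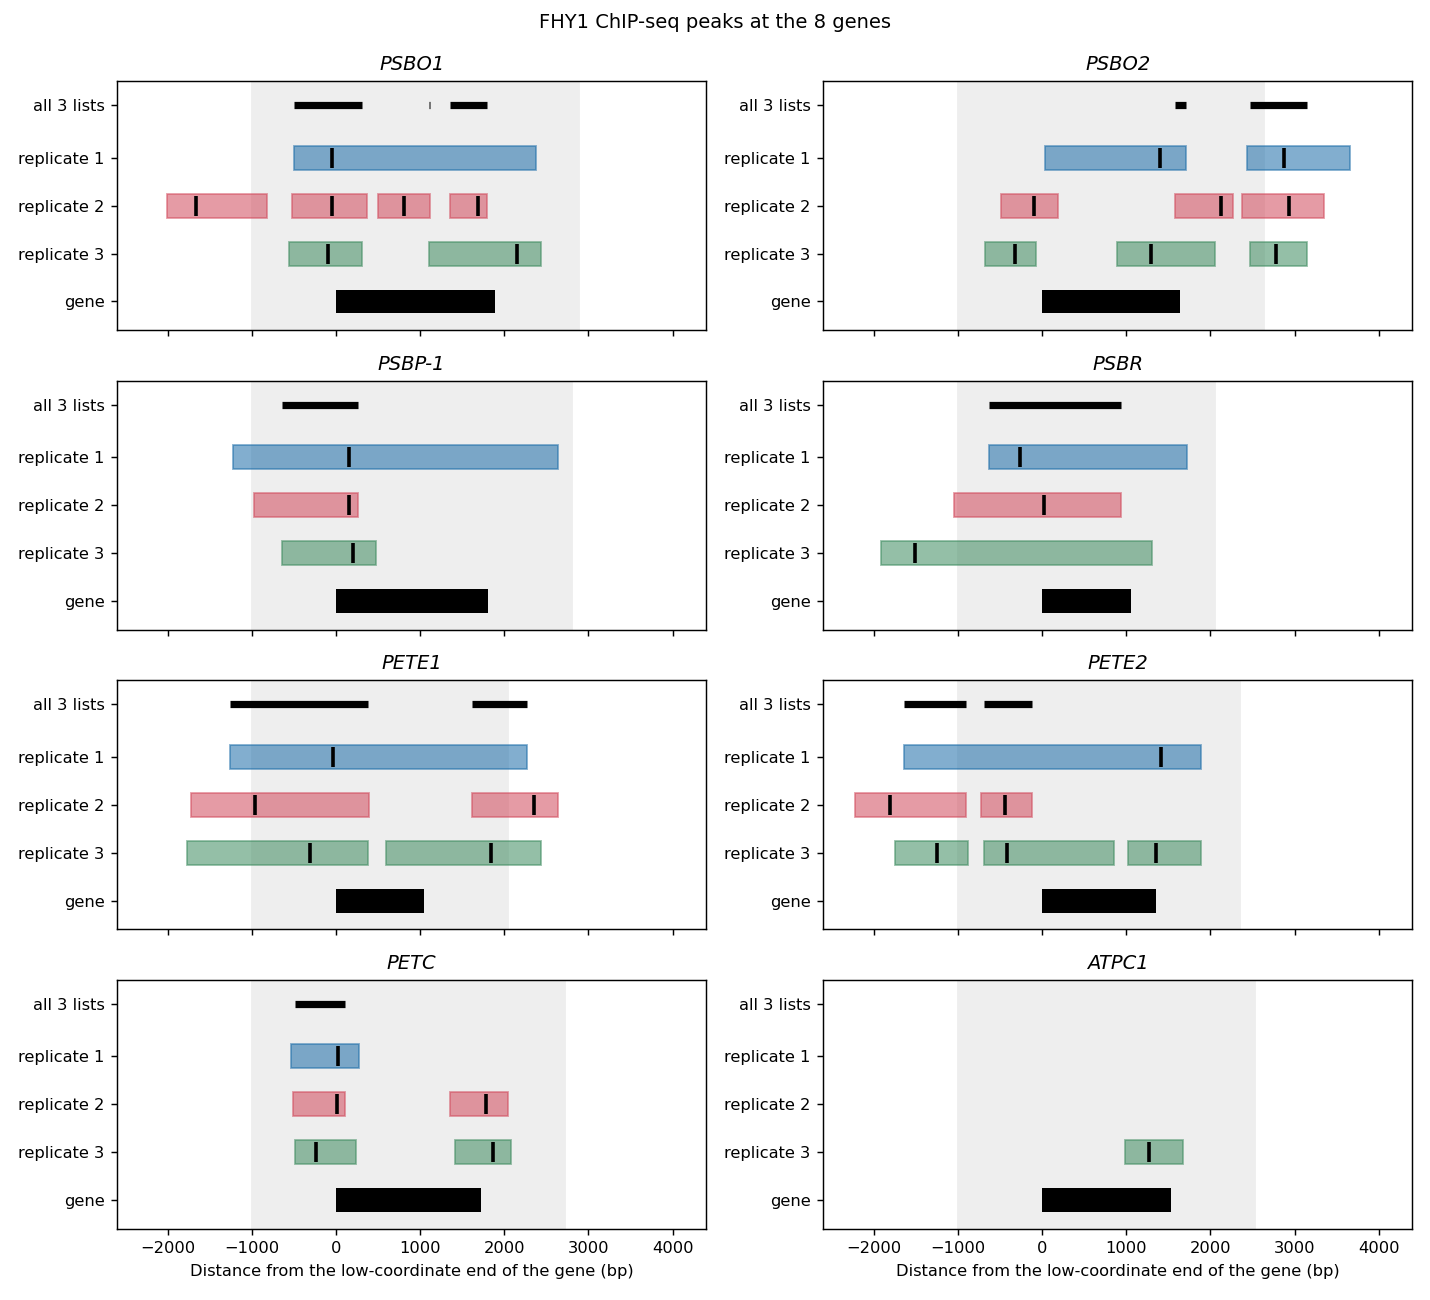
Peaks at the 8 genes, drawn against the distance in bp from the low-coordinate end of each gene. Coloured bars are the peaks of each replicate with a black tick at the summit, the black bar at the bottom is the gene, the grey area is the window with its 1000 bp flanks, and black lines at the top are the stretches covered in all 3 lists. A reader should see stretches at 7 genes, 6 of 12 across a gene end, and a single peak at ATPC1.

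PSBO1, the more highly expressed of the PsbO genes in leaves, had its strongest signal at the low end of the gene. An all-3 stretch ran there on chromosome 5 from 26568076 to 26568878 (TAIR10). The fold enrichments were 3.95, 6.11 and 5.59 in replicates 1, 2 and 3, with 1316, 758 and 568 tags in peaks 2869, 893 and 861 bp wide. The 3 summits lay 44, 51 and 89 bp outside the gene, a spread of 45 bp. The score percentiles were 82.7, 95.5 and 76.1, so these peaks ranked high in each list. A tRNA gene, AT5G66568, lies 101 bp outside the same end and was overlapped by a peak in all 3 replicates. In replicate 1 a single peak spanned both the tRNA gene and the whole of PSBO1. Without peaks that overlap a tRNA or snoRNA gene, PSBO1 therefore had no all-3 stretch. Separate peaks inside PSBO1 remained in replicate 2, with folds of 4.04 and 4.98, and another over its high end in replicate 3, with a fold of 3.2. Replicate 2 alone also had a peak over a pair of snoRNA genes 840 and 967 bp from the low end, with a fold of 3.43.

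PSBO2, the second PsbO gene, had less signal on the gene itself. Its strongest peaks lay beyond the high end, in an all-3 stretch on chromosome 3 from 18893339 to 18894016 that starts 831 bp outside the gene. The folds there were 4.1, 7.69 and 4.15, and the replicate 2 value is the highest of the 38 peaks in the 8 windows. The summits were 1241, 1296 and 1140 bp from PSBO2, while the neighbouring gene COR413-PM2, for a cold-regulated membrane protein, begins 1230 bp from it. The snoRNA gene AT3G50825 lies in the same gap and was under a peak in all 3 replicates. At the high end of PSBO2 a further all-3 stretch of 129 bp had folds of 3.23, 3.2 and 3.02. At the low end, peaks were present in replicate 2 (4.45) and replicate 3 (4.04), and the replicate 1 peak began inside the gene.

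Compared side by side, the PsbO genes had folds at their own low end of 3.95, 6.11 and 5.59 at PSBO1, whereas PSBO2 had values of 4.45 and 4.04 in replicates 2 and 3 alone. The signal at PSBO1 was also the more narrowly placed of the pair at that end, since the PSBO2 summits in replicates 2 and 3 lay 94 and 323 bp outside the gene. Because strand was not used, the low ends may not be the same end of both genes. The PSBO1 peaks there also overlapped the tRNA gene AT5G66568 in all 3 replicates. At its high end PSBO2 had an all-3 stretch, with folds of 3.23, 3.2 and 3.02.

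PSBP-1, for the extrinsic PsbP protein, had 1 peak in each replicate. An all-3 stretch of 909 bp on chromosome 1 from 2046994 to 2047902 crossed its low end. The folds were 3.93, 4.63 and 3.67, and the summits lay 153, 153 and 206 bp inside the gene, the closest agreement in position after PSBO1. The score percentiles were low, at 6.60, 46.1 and 32.6. PSBP-1 overlaps its neighbour NIH, which encodes a nuclear helicase, by 22 bp in the annotation, and the midpoint of the stretch lay in NIH. All 3 peaks therefore count for both genes.

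PSBR had 1 wide peak in each replicate, of 2346, 1988 and 3224 bp. Their common stretch of 1572 bp, on chromosome 1 from 29735323 to 29736894, covered most of the gene from its low end. The folds were 3.44, 3.63 and 6.3, and the score percentiles were 87.2, 27.3 and 97.9, the widest spread among the 8 genes. In replicate 3 the summit lay 1516 bp outside the gene, at the edge of AT1G79030, which ends 1507 bp from PSBR, whereas in replicates 1 and 2 it lay 267 bp outside and 20 bp inside PSBR. On its other side PSBR overlaps RECA1, for a chloroplast recombination protein, by 51 bp, and all 3 peaks were also within 1000 bp of RECA1.

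PETE1, for one of the plastocyanins, had the widest coverage of the 8 genes in replicates 1 and 3. Peaks covered 100%, 59.9% and 92.8% of its window in replicates 1, 2 and 3, and an all-3 stretch of 1640 bp on chromosome 1 from 28552621 to 28554260 reached across its low end. The folds were moderate, at 3.51, 4.02 and 3.66, with 1960, 1578 and 1508 tags. By score these peaks had percentiles of 91.2, 96.7 and 76.9, while they ranked at 24.9%, 53.9% and 28.6% by fold. Summits lay 37, 958 and 311 bp outside the low end, a spread of 921 bp. A second all-3 stretch of 658 bp began 565 bp beyond the high end and lay over AT1G76110, which starts 103 bp from PETE1.

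PETE2, the more abundantly expressed plastocyanin gene, had its closest all-3 stretch wholly outside the gene. It ended 117 bp from the low end, on chromosome 1 from 7041353 to 7041929. Its folds were 3.17, 3.7 and 4.79. The replicate 2 and replicate 3 summits lay 444 and 416 bp outside the gene, whereas the replicate 1 peak, 3525 bp wide, had its summit 62 bp beyond the high end. The neighbouring gene TIM17-1 begins 235 bp beyond that end, and 3 of the 6 peaks at PETE2 were within 1000 bp of TIM17-1. A second stretch began 901 bp from the gene and held the strongest replicate 2 peak of the window, with a fold of 5.72. That summit lay 1810 bp from PETE2, at the edge of the sterol methyltransferase gene SMT2, which ends 1814 bp from it. PETE2 was the member that lost its all-3 stretch when the flanks were left out.

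PETC had the most compact pattern, with peaks of 808, 622 and 736 bp at the low end. The all-3 stretch ran on chromosome 4 from 1439654 to 1440259. Its folds were 5.73, 3.93 and 5.33. The summits lay 23 and 8 bp inside the gene in replicates 1 and 2 and 235 bp outside it in replicate 3. The nearest protein-coding gene on this side is 6284 bp away. The peaks held few tags, 308, 258 and 316, and the score percentiles were 61.8, 18.4 and 26.2. At the high end, replicates 2 and 3 had further peaks with folds of 3.91 and 2.98 over the tRNA gene AT4G03285, which lies 141 bp from PETC.

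At ATPC1, replicates 1 and 2 had no peak in the window. The replicate 3 peak on chromosome 4 from 2351479 to 2352168 crossed the high end, with a fold of 3.68, 360 tags, a false discovery rate of 0.92% and a score percentile of 26.6. The nearest protein-coding genes are 10448 and 1963 bp away, and the peak was within 1000 bp of neither. Of all protein-coding genes, 20.5% had a peak in 1 replicate alone and 34.1% had one in all 3.

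**Figure D2:**
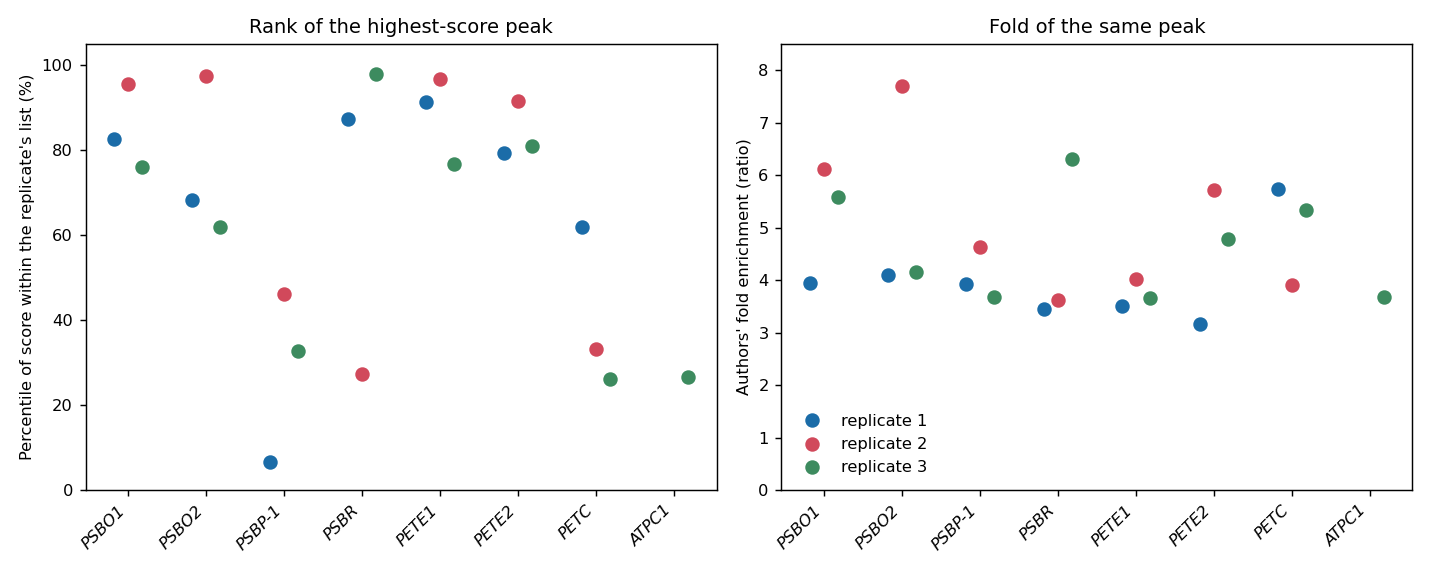
Highest-score peak in the window of each gene, 1 point per replicate. The left panel gives the percentile of its score within the list of that replicate (%), and the right panel its fold enrichment (ratio). PETE1, PSBO1 and PETE2 lie above 76% in each replicate, PSBP-1 lies below 47%, and PSBR runs from 27.3% to 97.9%.

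Ordered by the mean score percentile of the highest-score peak in the window, PETE1 came first (88.3 ± 10.2, SD, n = 3), followed by PSBO1 (84.8 ± 9.88) and PETE2 (83.9 ± 6.66). PSBO2 (75.8 ± 18.9) and PSBR (70.8 ± 38.1) were next, and PETC (40.4 ± 18.9) and PSBP-1 (28.4 ± 20.1) were lowest among the genes with a peak in every replicate. Each gene differed from the next in this order by less than the SD of at least 1 of the pair. At PSBO2 the summit of this peak lay nearer to a protein-coding neighbour than to the gene. The same held in replicate 2 at PETE2 and in replicate 3 at PSBR. In replicate 1 at PETE2 the summit lay 62 bp from the gene, on the side where TIM17-1 begins 235 bp away. At PETC in replicate 2 the peak was the one at the high end. By mean fold of the same peaks the order was another, with PSBO2 at 5.31 ± 2.06, PSBO1 at 5.22 ± 1.13, PETC at 4.99 ± 0.956 and PETE2 at 4.56 ± 1.29 (SD, n = 3). PSBR was at 4.46 ± 1.60, PSBP-1 at 4.08 ± 0.497 and PETE1, first by score, was last at 3.73 ± 0.262. For the genes with a peak, the median percentile of this peak was 79.2, 91.5 and 69.0 in replicates 1, 2 and 3, and it was 55.3, 68.0 and 62.2 for all protein-coding genes with a peak. The 3 genes outside the lists whose percentiles lay nearest to those of PETE1 were its neighbour AT1G76110, which shares its peaks, CB5-C and RPS15, with distances of 0, 0.875 and 1.45 percentage points over the 3 replicates, among 9332 genes.

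The 38 peaks in the 8 windows had folds from 2.98 to 7.69 with a median of 3.93, and false discovery rates from 0.41% to 1.58%. The 3 peaks with the highest scores in replicate 2, at PSBO2, PETE1 and PSBO1, had rates of 1.58%, 1.49% and 1.58%, and the weaker peaks of these windows in replicate 2 had 0.73% to 1.2%. The summits of 27 peaks lay outside the gene and those of 11 inside it, and 27 were within 500 bp of a gene end. The genes are 1048 to 1890 bp long and the windows add 1000 bp at both ends, so these counts partly follow from the window. The same counts were not made for all genes, so no preference for gene ends can be read from them.

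Replicate 1 had few but wide peaks at these genes. Its 8 peaks had a median width of 2607.5 bp, against 957 bp for its whole list, while replicates 2 and 3 had 15 peaks each with medians of 893 and 873 bp, against 689 and 859 bp. Peaks covered a median of 75.2%, 40.1% and 54.9% of the windows of the 8 genes in replicates 1, 2 and 3, against 0%, 20.4% and 16.8% for all protein-coding genes. The 0% arises because only 40.1% of all genes had a peak in replicate 1. For the 26 other pathway genes described below, the medians were 20.3%, 34.3% and 31.4%, also above those of all genes. The 8 genes are short, with a median length of 1581.5 bp against 2078 bp for all genes, so their windows hold a larger share of flanking DNA.

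**Figure D3:**
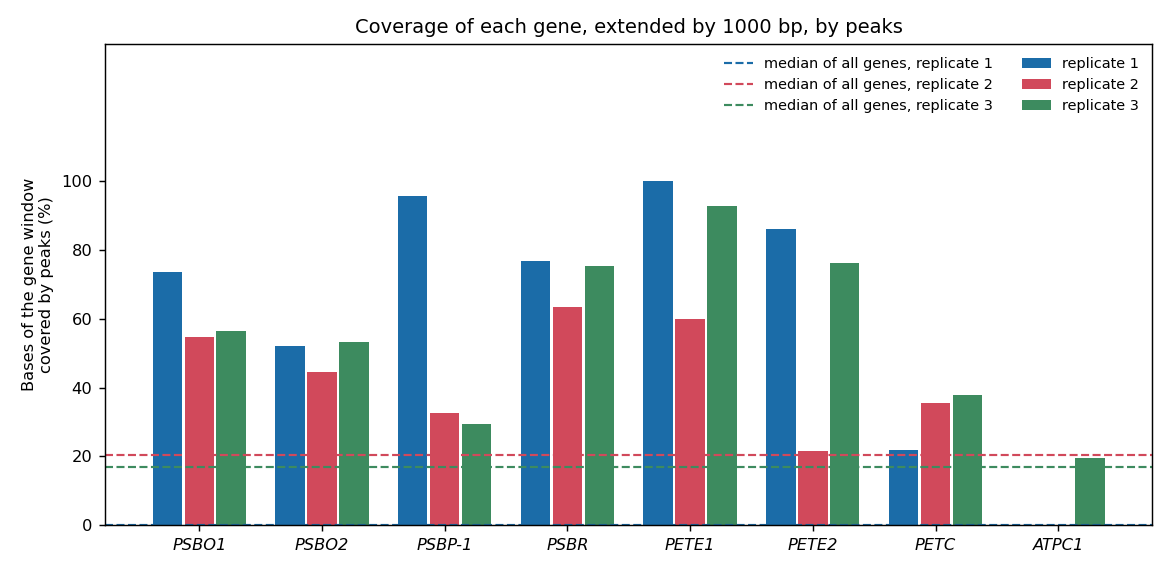
Share of bases of each window (gene plus 1000 bp at both ends) covered by peaks (%), 1 bar per gene and replicate. Dashed lines mark the median of all protein-coding genes, 0%, 20.4% and 16.8% in replicates 1, 2 and 3. PETE1 reaches 100% in replicate 1, and ATPC1 has 19.6% in replicate 3 alone.

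The 7 genes held 12 all-3 stretches. Of these stretches, 6 crossed a gene end (50%), 4 lay outside the gene and 2 inside, and 56.7% of the 9913 pairs of any protein-coding gene and a stretch in its window crossed or spanned an end. The low end was crossed at PSBO1, PSBP-1, PSBR, PETE1 and PETC, and the high end at PSBO2. By its midpoint, the stretch had one of the 8 genes as its nearest protein-coding gene in 8 of 12 cases, a count not made for the pairs of all genes. The replicate summits had a median spread of 1228.5 bp over the 12 stretches and 144 bp over all 6687. Spreads of 156 bp or less were found at PSBO1, PSBP-1 and the stretch between PSBO2 and COR413-PM2. A stretch over a tRNA or snoRNA gene made up 2 of the 12, against 2.47% of all 6687. Whether signal at these small RNA genes has a part in the values of PSBO1 and PSBO2 was not tested.

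The authors' series list holds 3419 regions with 3 heights each, under sample headers that cannot be tied to replicate numbers. It had a region at 3 of the 8 genes, against 14.4% of all genes. At PSBO1 the region ran on chromosome 5 from 26568361 to 26568701. Its heights were 152, 265 and 208 under the headers Sample1, Sample2 and Sample3, or 208 ± 56.5 (SD, n = 3), at the 77.6 percentile of the list. The summits lay 17, 47 and 107 bp outside the low end. PSBR had heights of 118, 138 and 147 (134 ± 14.8) at the 25.0 percentile, in a region on chromosome 1 from 29735481 to 29735851 with summits 267, 287 and 187 bp outside the low end. These summits lay at the low end of PSBR, unlike the summit of the replicate 3 peak. PETC had 98, 90 and 158 (115 ± 37.2) at the 13.7 percentile, in a region on chromosome 4 from 1439801 to 1440031 with summits 221, 241 and 231 bp outside the low end. These PETC summits lay near that of the replicate 3 peak, unlike those of replicates 1 and 2, which were 23 and 8 bp inside the gene. In each of the 3 samples the PSBO1 height was above those of PSBR and PETC, while PSBR was above PETC under Sample1 and Sample2 and below it under Sample3. A further region, between PSBO2 and COR413-PM2, had heights of 135, 289 and 154 (193 ± 84.0). It began 1033 bp from PSBO2 in the bases common to the 3 samples, and entered the window in its full extent alone. Without the flanks only the PSBO1 region remained, at a setting where 8.44% of all genes had a region, so this count lies near the background. The PSBO1 region overlaps the tRNA gene AT5G66568. With regions over a tRNA or snoRNA gene left out, 2 of the 8 genes had a region, against 14.1% of all genes.

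**Figure D4:**
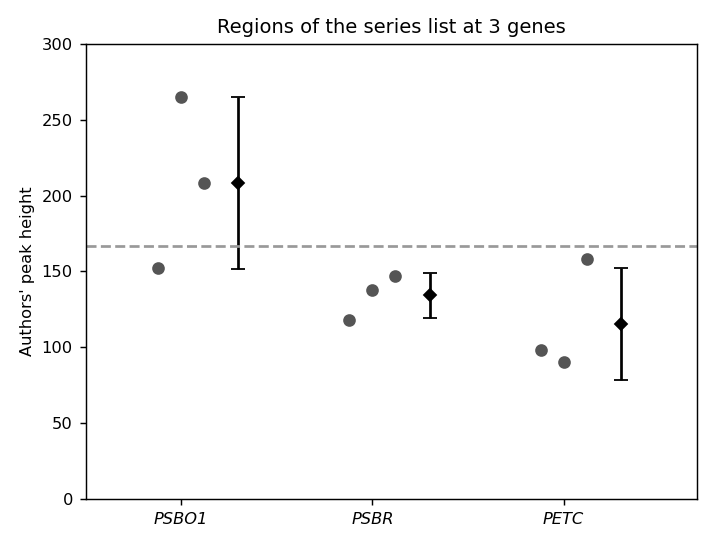
Peak heights in the authors' series list at the 3 genes with a region. Grey points are the 3 samples of the list, black diamonds with bars are their mean and SD, and the dashed line is the median of the mean heights of all 3419 regions (167). The PSBO1 mean of 208 lies above that line, and the PSBR and PETC means of 134 and 115 lie below it.

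Another 26 genes of the pathway were set beside these 8. They comprised 7 genes of the PsbP and PsbQ families, 7 other photosystem II genes, 9 genes of electron transport and its regulation, and 3 ATP synthase genes. Peaks were found in the windows of 16, 24 and 21 of the 26 in replicates 1, 2 and 3 (61.5%, 92.3% and 80.8%, against 40.1%, 79% and 67.7% of all genes). An all-3 stretch was present at 12 (46.2%, against 28.5% of all genes), and bases covered by at least 2 replicates at 20 (76.9%, against 60.1%). With the strongest 8423 peaks of each list, 4 of the 26 had an all-3 stretch, against 14.6% of all genes, which is near the background. By the midpoint of the stretch, with the nearest protein-coding gene, 7 of the 26 had an all-3 stretch, against 18.4% of all genes. The series list held a region at 3 of the 26, PSB27, FNR1 and PGRL1A, which is 11.5% and near the 14.4% of all genes.

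Of the PsbP and PsbQ families, PSBQ-1 and PSBQ-2, for the extrinsic PsbQ proteins, had all-3 stretches with folds of 4.27, 5.03 and 5.41 and of 5.73, 3.08 and 3.34. PSBP-2, the second PsbP gene, had 1 peak in replicate 2 with a fold of 3.1 that covered 1.23% of its window, whereas PSBP-1 had peaks in all 3. The stretch of PPL2, for a PsbP-like protein, began 994 bp from the gene and lay over the ribosomal protein gene RPL23AA. Among other photosystem II genes, PSB27, for an assembly factor, had stretches at both ends. The folds were 4.26, 5.86 and 4.86 at its low end and 5.16, 3.88 and 4.65 at its high end. PSBTN had folds of 3.74, 4.27 and 4.51, and PSBY had 3.21, 4.04 and 3.85 at its low end, both with the midpoint of the stretch in a neighbouring gene. PSBS, needed for the thermal dissipation of excess light, had peaks in replicates 2 and 3 alone.

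Ferredoxin receives electrons from photosystem I, and both leaf ferredoxin genes had an all-3 stretch. At FD2, for the main leaf form, the folds were 4.94, 4.64 and 3.8 and the score percentiles 97.3, 89.2 and 66.8. The summits of these peaks spread over 2332 bp and lay inside FD2 in replicate 1 alone, and the stretch also overlapped the neighbouring gene IRT3. FD1 had folds of 3.82, 4.02 and 3.83, with the midpoint of its stretch in the neighbouring gene TMN1. FNR1, for a ferredoxin-NADP reductase, had 5.31, 3.33 and 5.55 over its high end, while FNR2 had peaks in every replicate but no bases common to all 3. PGR5 and PGRL1A act in cyclic electron flow around photosystem I. PGR5 had folds of 2.95, 4.55 and 4.97, and PGRL1A had 4.56, 4.11 and 3.96 in a stretch nearer to LDOX, for an enzyme of anthocyanin synthesis. Of the ATP synthase genes, ATPG had folds of 4.13, 3.58 and 3.8 in a stretch whose midpoint lay 88 bp from it and 44 bp from its neighbour AT4G32270. ATPC2, the second gamma subunit gene, had peaks in replicates 2 and 3 without common bases, and ATPD had peaks in replicates 1 and 3. Together with ATPC1, 1 of the 4 ATP synthase genes had an all-3 stretch, near the 28.5% of all genes.

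**Figure D5:**
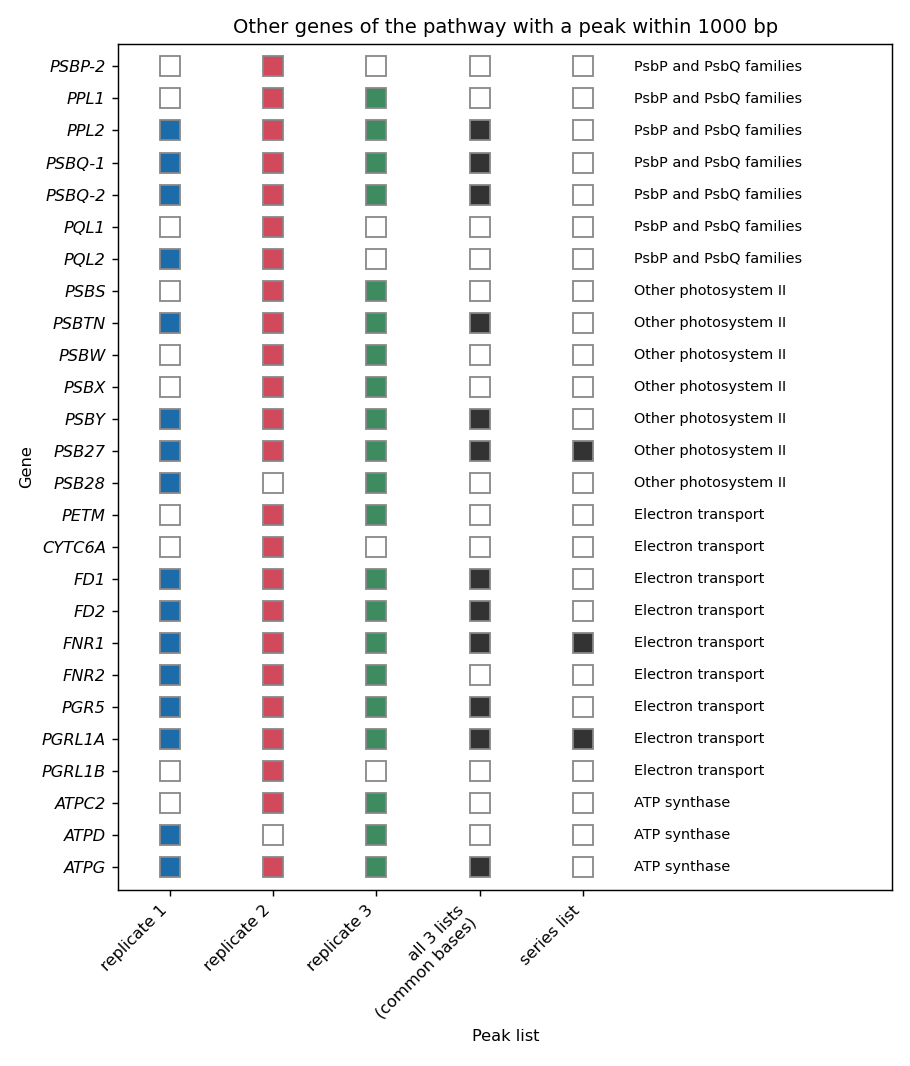
Other genes of the pathway, 1 row per gene and 1 column per peak list. A filled square means that a peak, a stretch common to all 3 lists or a region of the series list overlaps the gene extended by 1000 bp at both ends. The 12 genes with a filled square in the fourth column have an all-3 stretch, and 3 have a region of the series list.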

How the data were processed

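ChIP-seq peak lists of 3 FHY1 replicates were analysed, grouped by sample title. Bowtie and the TAIR10 build are named in the submitters' processing notes. The sources used here give neither the peak caller nor its background. The replicate lists have no header and their columns were read from the values. The authors deposited a tag count per peak (a whole number, not normalised as far as the values show), a score, a fold enrichment as a ratio and a false discovery rate as a percent. The lowest score was 50 and the highest rate 4.96%, so weaker peaks were not analysed here. The deposited series list holds a signal, the height of each peak, with no stated scaling. Since the lists give no library totals, the precision that depth allows is unknown.

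Gene positions came from RefSeq (assembly TAIR10.1), and none of its coordinates is printed. All 34 genes matched by locus code. The fit of the builds was checked by shifting stretches. Between 40.5% and 41.5% of midpoints fell in protein-coding genes per chromosome without a shift, and 61.2% to 66.2% after a shift of 2000 bp. Stretches were built from peaks of at least 2 or of all 3 replicates, with interval code tested on simulated data (Python 3.11.15, NumPy 2.4.6, pandas 2.3.3). Regions of the series list were taken as the bases common to its 3 samples, and summits as the start plus the deposited offset.

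The members, gene lists and alternatives were chosen with earlier results of these data known. All 8 members were named, as were the other pathway genes with an all-3 stretch (up to 12) and the 3 genes nearest to the top member in score percentiles. Neighbours within 1000 bp of a member's peak were also to be named. Those not described above were AT5G66560 at PSBO1 (1 of 7 peaks), AT3G50810 at PSBO2 (3 of 8) and AT1G06690 at PSBP-1 (1 of 3). The others were SMT3 at PETE1 (3 of 5) and AT4G03290 at PETC (2 of 5). PSBP-2, PSBS, FNR2, ATPC2, ATPD and the small RNA genes were named after their values were seen. The planned motif search was not run, since no sequence was used. Alternatives were the flank, cut-offs on the peaks, the overlap, the assignment and leaving out a replicate. Peaks over tRNA or snoRNA genes left out, the nearest gene and the full extent of series regions were chosen after seeing the data.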

Additional observations from a re-analysis of the deposited data

How the results depend on the processing

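Of 92 alternative values for 9 results, 81 stayed within 1.5 times the reported count or within the replicate SD. Some of the 81 could not have moved. The strongest 8423 peaks of replicate 1 are its whole list, and a wider flank can only add to counts of 7 or 8 of the 8 genes. With the strongest 8423 peaks of each list, 4 of the 8 genes had a peak in replicate 2 and 5 in replicate 3 (37.5% and 38.3% of all genes), and 4 had an all-3 stretch (14.6%). Of the 26 other genes 10 had a shared stretch (bases covered by at least 2 replicates, 34.9% of all genes) and 4 an all-3 stretch, both near the background. A false discovery rate of at most 1% left all-3 stretches at 4 of the 8 and at 7 of the 26 (16.5% of all genes). By the midpoint in the gene or the nearest gene, 13 of the 26 had a shared stretch (41.8% of all genes) and 7 an all-3 stretch (18.4%). By the same rule 6 of the 8 genes had a shared stretch and 6 an all-3 stretch, which PSBP-1 lost. Without flanks, 1 of the 8 had a series region (8.44% of all genes). The cause of these changes was not tested. Leaving out 1 replicate in turn cannot lose a gene with an all-3 stretch, so the 7 of 8 genes found each time show no stability. Of the 26 others, 17, 15 and 13 had a shared stretch without replicates 1, 2 and 3. The shares of all genes at these settings, which apply to both gene lists, were 53.8%, 33.1% and 33.3%. The median fold at the 8 genes, averaged over replicates, was 4.34 with the peak of highest score and also with that of highest fold. No paired analysis was possible because the ChIP replicates are 1 group and no other group was analysed here. The lists hold no depth and no weak peaks, so a gene without a peak, such as ATPC1 in replicates 1 and 2, is below the authors' thresholds and not shown to lack signal.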
